A study of Homo sapiens with 4 samples.

Results

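Complement is a cascade of plasma and cell surface proteins that tags and lyses cells. The proteases C1r and C1s start its classical pathway, factor B belongs to the alternative pathway, and both pathways cleave C3, whose larger fragment attaches to surfaces. Host cells limit the attack: CD46 and factor I inactivate the attached fragments, CD55 takes apart the enzymes that cleave C3, CD59 blocks the membrane pore, and the C1 inhibitor (SERPING1) stops C1r and C1s. The liver makes most plasma complement, but epithelial and tumour cells also transcribe many of these genes.

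Transcripts of 9 complement genes, of 39261 genes in the tables, were followed: the protease genes C1R and C1S, the central component C3, the alternative pathway gene CFB, the soluble regulators CFI and SERPING1, and the membrane regulators CD46, CD55 and CD59. They were found by gene symbol, and all 9 have a row in every table. They were chosen by their role in complement with their treated-over-control ratios and control FPKM in these libraries already known, so the values below describe them and test nothing.

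Libraries for RNA-seq were made from 2 human breast cancer cell lines, in 4 cultures that each carried a lentiviral construct. MDA-MB-231 is a mesenchymal, triple-negative line and had a TMEM126A knockdown or, as control vector, sh-NC. MCF10-Ca1a, here Ca1a, descends from MCF10A mammary epithelium, forms tumours, and had TMEM126A overexpression or the control vector pCDH. TMEM126A encodes a mitochondrial inner membrane protein of complex I assembly, and each group held 1 library, so nothing below could be checked against replicates. The lines grew in different media: MDA-MB-231 in L15 with fetal bovine serum, Ca1a in DMEM/F12 with horse serum, insulin, EGF, cholera toxin and hydrocortisone.

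Depth was 20673373 to 21405193 reads in genes per library. TMEM126A had 22.9 normalized counts in knockdown cells against 559 in their control, and 9381 in overexpressing cells against 265 in their control. The basal keratin gene KRT5 stood at 0.145 to 0.281 FPKM, fragments per kilobase scaled to depth, in MDA-MB-231 and 335 to 440 FPKM in Ca1a, and the mesenchymal gene VIM at 708 to 721 and 74.8 to 90.5 FPKM. Of markers of other cells that make complement, CD163 (macrophages) was listed at 0 in every library, ALB and APOA1 (hepatocytes) reached at most 0.124 and 0.328 FPKM, and DCN (fibroblasts) at most 0.0142 FPKM. CD14, CSF1R and COL1A1, which other cell types also transcribe, stood at 1.35 to 4.65, 0.413 to 2.2 and 0.813 to 1.79 FPKM.

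RefSeq promoter windows, from 250 bases before to 50 bases after an annotated start, were at hand for 6 of the 9 genes. Those of C1R and CD55 are shown because these genes had the largest called ratio upwards and the only one downwards, and that of CD59 for comparison with CD55, which shares its membrane anchor. They are on GRCh38.p14, written 5′ to 3′ on the strand of the gene. The C1R windows are chr12:7092396-7092695 and chr12:7091844-7092143 on the minus strand, for alternative starts. The CD55 window is chr1:207321428-207321727 on the plus strand, and the CD59 window, the most upstream of 4 for alternative starts, is chr11:33736430-33736729 on the minus strand. Capitals mark matches to the motifs described after them.
C1R, upstream start: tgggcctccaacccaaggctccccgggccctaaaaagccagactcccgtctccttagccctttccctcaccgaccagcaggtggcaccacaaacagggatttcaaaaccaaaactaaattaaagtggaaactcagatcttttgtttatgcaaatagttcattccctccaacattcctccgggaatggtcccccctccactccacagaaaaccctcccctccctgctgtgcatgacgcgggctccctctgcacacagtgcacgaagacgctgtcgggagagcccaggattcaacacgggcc
C1R, downstream start: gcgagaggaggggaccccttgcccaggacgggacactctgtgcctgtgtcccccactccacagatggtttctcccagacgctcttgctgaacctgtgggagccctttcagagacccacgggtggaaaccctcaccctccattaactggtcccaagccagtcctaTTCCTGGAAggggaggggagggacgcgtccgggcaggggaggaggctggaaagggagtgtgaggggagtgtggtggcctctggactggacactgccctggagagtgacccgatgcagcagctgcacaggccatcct
CD55: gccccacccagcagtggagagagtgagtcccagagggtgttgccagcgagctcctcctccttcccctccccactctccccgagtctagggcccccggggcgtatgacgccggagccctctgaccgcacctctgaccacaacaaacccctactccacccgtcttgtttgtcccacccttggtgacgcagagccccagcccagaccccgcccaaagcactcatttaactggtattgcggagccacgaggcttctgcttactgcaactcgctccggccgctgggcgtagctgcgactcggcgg
CD59: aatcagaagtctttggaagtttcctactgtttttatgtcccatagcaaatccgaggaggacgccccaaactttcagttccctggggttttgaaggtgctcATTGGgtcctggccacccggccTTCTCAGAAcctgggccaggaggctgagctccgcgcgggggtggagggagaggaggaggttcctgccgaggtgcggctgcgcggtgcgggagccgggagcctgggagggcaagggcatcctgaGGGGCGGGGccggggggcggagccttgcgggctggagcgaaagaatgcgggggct

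Both strands were searched for 8 motifs: GAS (TTCNNNGAA, bound by STAT factors), the ISRE core (TTTC repeated after a gap of any 2 bases, bound by interferon regulatory factors), NF-kB (GGGA, then any 1 base, then TTTCC), C/EBP (TTNNGCAAT), CRE (TGACGTCA), the CCAAT box, the TATA box (TATAAA) and the GC box (GGGGCGGGG). In the windows described here no match overlapped a match to another motif. GAS, ISRE core and NF-kB matches occur in 7.66%, 3.57% and 0.558% of 35116 windows of this length, and CCAAT, TATA and GC box matches in 34.6%, 11.5% and 15.7%. C/EBP and CRE matches occur in 2.31% and 1.85%. The downstream C1R window held the GAS match TTCCTGGAA at position -86 from the start, and the CD59 window the GAS match TTCTCAGAA at -128, a CCAAT match and a GC box. The next CD59 window overlaps it and holds the same matches, while of the other two, 1 held only a CCAAT match and 1 none. The upstream C1R window and the CD55 window held none of the 8. The CFB window (chr6:31945845-31946144, plus strand), not printed in full, held a GAS match, TTCCGGGAA, at -92, an ISRE core, TTTCTGTTTC, at -140 and a TATA box at -30. The CD46 and CFI windows held only CCAAT matches.

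The genes fell into a high and a low set in the control cultures. C3, CD46, CD55 and CD59 were abundant in both lines, at 43.8, 45.8, 52.9 and 63.8 FPKM in the MDA-MB-231 control and 46.0, 87.4, 85.7 and 89.7 FPKM in the Ca1a control. Each exceeded at least 88.8% of the genes with 1 FPKM or more in that library. The order was CD59, CD55, CD46 and C3 in the MDA-MB-231 control, and CD59, CD46, CD55 and C3 in the Ca1a control. CD59, CD46 and CD55 lay within a narrow range in Ca1a, and 1 library gives no spread to rank them by.

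The protease genes C1R and C1S had higher levels in the MDA-MB-231 control. C1R stood at 5.63 FPKM in the MDA-MB-231 control and 0.380 FPKM in the Ca1a control, a ratio of 14.8, from 229 and 14 reads. C1S stood at 1.54 FPKM in the MDA-MB-231 control and 0.182 FPKM in the Ca1a control, a ratio of 8.50, from 151 and 22 reads. In reads scaled to library totals these ratios were 16.9 (95% counting interval 9.84 to 31.3) and 7.07 (4.50 to 11.6). Intervals cover counting error alone, not variation between cultures.

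The membrane regulators went the other way and were higher in Ca1a. The ratio of the MDA-MB-231 control to the Ca1a control was 0.524 for CD46, 0.617 for CD55 and 0.711 for CD59 in FPKM. The summed FPKM of these 3 genes was 163 in the MDA-MB-231 control and 263 in the Ca1a control. C3 differed little, with a ratio of 0.953. Among all 12101 genes with at least 1 FPKM in either control, 27.5% were at least 2-fold higher in the MDA-MB-231 control and 14% in the Ca1a control. C1R and C1S reach that level in the MDA-MB-231 control alone, so nothing is read from counting them against these shares. Over 9658 genes with at least 1 FPKM in both controls the median ratio was 1.15, a log2 shift of 0.21, and relative to it the ratios were 0.826 for C3, 0.454 for CD46, 0.535 for CD55 and 0.616 for CD59. Line and culture medium cannot be told apart.

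CFI and SERPING1 were low. CFI had 26 reads in the MDA-MB-231 control and 1 in the Ca1a control, a ratio of 26.8 in reads scaled to library totals, with a counting interval of 4.40 to 1098. SERPING1 had 2 reads in the MDA-MB-231 control and 0 in the Ca1a control, where a count of 0 allows up to 3 reads.

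**Figure D1:**
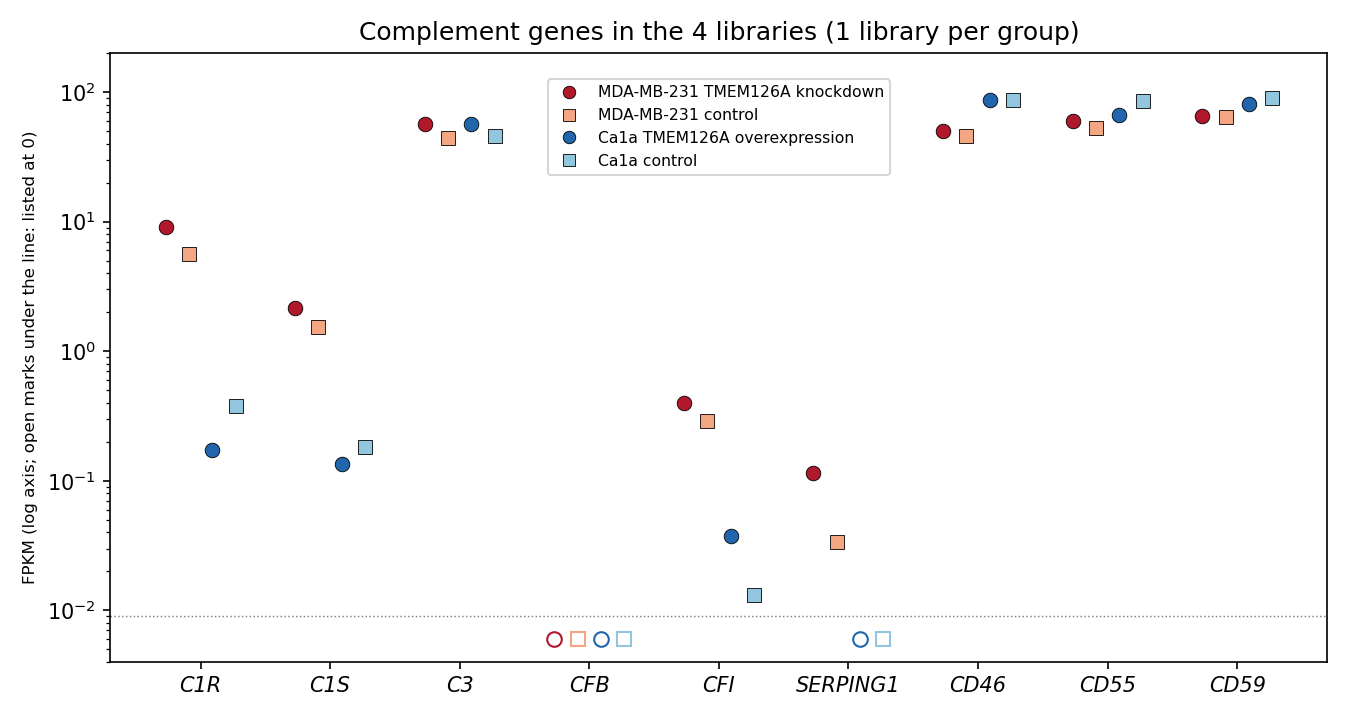
FPKM (log axis) of the 9 complement genes in the 4 libraries, with circles for the treated libraries and squares for the controls. Open marks under the dotted line are genes listed at 0. C3, CD46, CD55 and CD59 lie between 43.8 and 89.7 FPKM in every library, C1R and C1S are higher in MDA-MB-231, and CFB is listed at 0 throughout.

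CFB was listed at 0 in all 4 libraries, in counts and in FPKM. It lies on chromosome 6 at 31945650 to 31952084 of GRCh38, in the major histocompatibility complex, beside C2, C4A and C4B, which were also listed at 0. Between HLA-F and HLA-DPB1 (29722775 to 33087201), 112 of 124 protein-coding genes (90.3%) were listed at 0 in every library, against 171 of 856 (20.0%) on the rest of the chromosome. Most genes around CFB share its zeros, which give no level for the alternative pathway, and their cause was not tested.

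The first question was what lowering TMEM126A in MDA-MB-231 goes with among these transcripts. C1R, C1S and C3 were higher in the knockdown library. The membrane regulators differed by less, all in the same direction. A gene was called when its ratio was at least 1.2-fold, the 95% counting interval of the ratio left out 1 and the mean of both libraries was at least 20 normalized counts. Of 9 members 7 passed that minimum, 3 were called higher and 0 lower. Over all 13292 genes tested 5.33% were called higher and 3.39% lower.

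C1R, the protease that activates itself and then C1s, had 370 normalized counts in knockdown cells (95% Poisson interval 333 to 409), against 230 in control cells (202 to 262). The ratio was 1.60 (1.36 to 1.90), above that of 98.8% of tested genes. The 2 intervals of the levels cover counting error alone. C1S, the protease that cleaves C4 and C2, had 206 normalized counts in knockdown cells (179 to 236), against 152 in control cells (129 to 178). Its ratio was 1.35 (1.09 to 1.68).

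C1R and C1S are neighbours on chromosome 12 of GRCh38, C1S at 6988259 to 7071032 on the plus strand and C1R at 7080199 to 7092607 on the minus strand, with 9166 bp between them in GENCODE release 29. The annotated C1R shares 3021 bp with C1RL, a related protease gene on its own strand. C1RL had 256 normalized counts in knockdown cells against 228 in control cells, a ratio of 1.12 (0.936 to 1.35), and was not called. C1S overlaps EMG1 on the same strand and LPCAT3 on the opposite one, so its reads are uncertain, since whether the counting used strand is unknown here. Other members share most of their span with another annotated protein-coding gene on the same strand: CFI shares 61306 bp with AC126283.2, CFB 6399 bp with AL645922.1 and CD59 19458 bp with AL049629.2. C3 shares 649 bp with GPR108 and 1357 bp with AC008760.2, and CD46 680 bp with the pseudogene CDCA4P4, all on the same strand. Whether the annotation used for counting held these overlapping genes is unknown here. The counts of C1R, C3, CFI, CFB, CD46 and CD59 may thus be uncertain in the same way, and an effect of overlap was not tested.

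C3, whose cleavage is the step shared by all complement pathways, had 9093 normalized counts in knockdown cells (8907 to 9281), against 6956 in control cells (6793 to 7122). The ratio was 1.31 (1.27 to 1.35), above that of 95.1% of tested genes. Few genes of this abundance were called: 5446 averaged 1000 or more normalized counts, and 2.66% of those were higher by the same rule. C3 lies on chromosome 19 at 6677704 to 6730562 on the minus strand.

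CFI, the protease that cuts the attached C3 fragments, had 42.7 normalized counts in knockdown cells (30.9 to 57.6), against 26.2 in control cells (17.1 to 38.3). Its ratio of 1.63 (0.981 to 2.77) was the highest of the 7 members but its interval held 1, so it was not called. SERPING1, the inhibitor of C1r and C1s, had 7 reads in knockdown cells against 2 in control cells, a ratio of 3.46 with an interval of 0.658 to 34.1, and a mean under the minimum. A difference in SERPING1 was not detectable at this depth.

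The membrane regulators were a little higher in the knockdown library. CD55 had 6415 normalized counts in knockdown cells against 5660 in control cells, a ratio of 1.13 (1.09 to 1.17). CD46 had 5585 in knockdown cells against 5108 in control cells, a ratio of 1.09 (1.05 to 1.14). CD59 had 15086 in knockdown cells against 14570 in control cells, a ratio of 1.04 (1.01 to 1.06). None reached 1.2-fold, although each interval lay above 1, as did the intervals of 16.8% of all tested genes. In all, 6 members had an interval above 1 and 0 below it, where 11.3% of tested genes lay below.

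**Figure D2:**
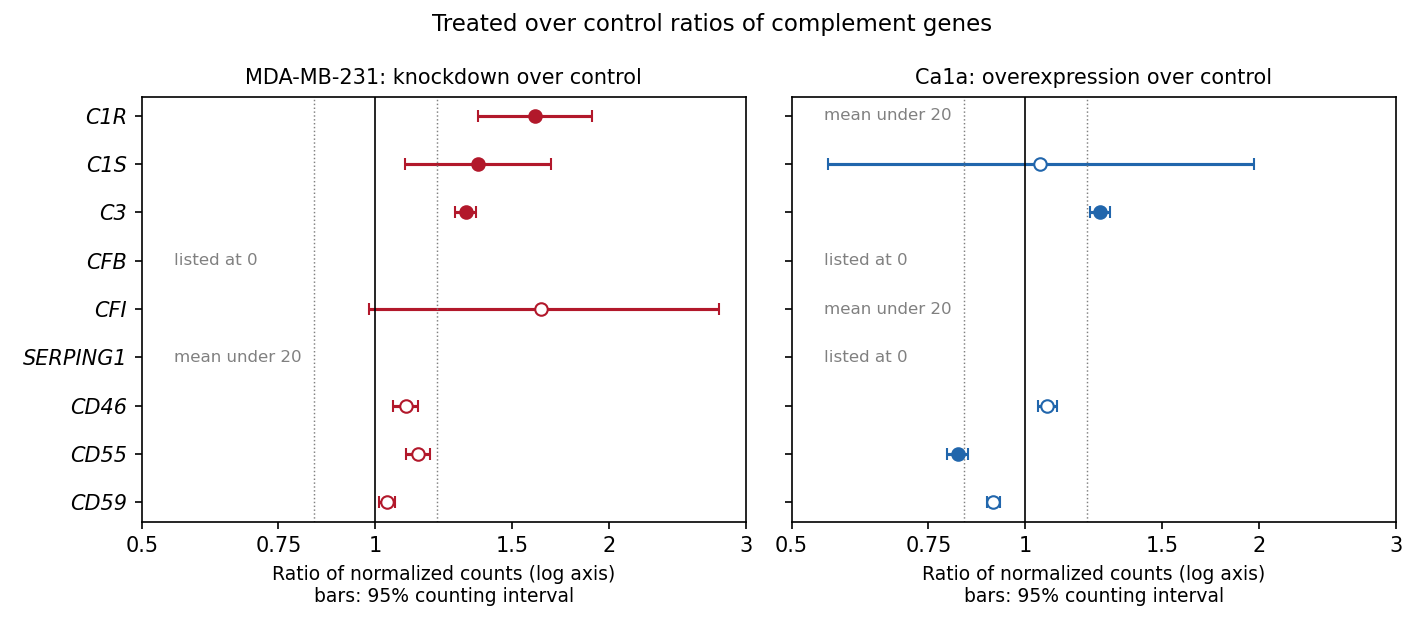
Ratio of normalized counts, treated over control, for each complement gene in MDA-MB-231 (left) and Ca1a (right), on a log axis with 95% counting intervals. Filled points were called, open points were not, and dotted lines mark 1.2-fold in either direction. C1R, C1S and C3 are called higher in the knockdown library, and in the overexpression library C3 is called higher and CD55 lower.

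The second question was the same for raised TMEM126A in Ca1a. In overexpressing cells C3 was higher and CD55 was lower, while C1R and C1S had few reads. Of 9 members 5 passed the minimum, 1 was called higher and 1 lower. Over all 12111 genes tested 5.76% were called higher and 5.94% lower.

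C3 had 9421 counts in overexpressing cells (9232 to 9613), against 7550 in control cells (7381 to 7722). The ratio was 1.25 (1.21 to 1.29), above that of 93.2% of tested genes, and 2.84% of the 4831 genes with a mean of at least 1000 were called higher. C3 was higher in the treated library of both lines, although TMEM126A was lowered in one and raised in the other. Of 11349 genes tested in both comparisons, 65 (0.573%) were called higher in both, C3 among them.

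CD55, also called decay-accelerating factor, had 7517 counts in overexpressing cells (7348 to 7689), against 9191 in control cells (9004 to 9381). The ratio was 0.818 (0.793 to 0.843), which is 1.22-fold lower and close to the limit of the call, and 8.03% of tested genes had a lower ratio. Of the 4831 genes with a mean of at least 1000, 3.75% were called lower. CD59 had 18643 counts in overexpressing cells against 20498 in control cells, a ratio of 0.910 (0.892 to 0.928), and was not called. CD55 and CD59, both held in the membrane by a glycosylphosphatidylinositol (GPI) anchor, were lower here and slightly higher in the knockdown library.

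CD46, which spans the membrane, had 10443 counts in overexpressing cells against 9789 in control cells, a ratio of 1.07 (1.04 to 1.097). In FPKM it stood at 86.9 in overexpressing cells against 87.4 in control cells, a ratio of 0.994, so its direction depended on the unit. The summed FPKM of CD46, CD55 and CD59 was 234 in overexpressing cells against 263 in control cells, and 175 in knockdown cells against 163 in their control. In Ca1a, 2 members had an interval above 1 and 2 below it, against 18.1% and 16.2% of tested genes.

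The classical pathway proteases could not be compared in Ca1a. C1S had 23 counts in overexpressing cells against 22 in control cells, a ratio of 1.05 (0.557 to 1.97), and 0.737 in FPKM. C1R had 11 counts in overexpressing cells against 14 in control cells, a ratio of 0.786 (0.323 to 1.86), and 0.453 in FPKM. CFI had 4 reads in overexpressing cells against 1 in control cells, a ratio of 4.0 (0.396 to 197), and SERPING1 was listed at 0 in both libraries. The ratios of C1R and C1S seen in MDA-MB-231 lie inside these wide intervals, so no difference between the comparisons was shown.

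In the authors' deposited table for MDA-MB-231 the adjusted p was 0.198 for C1R and 0.184 for C3, and 1 for the other members with a value. In the authors' deposited table for Ca1a it was 1 for every member with a value. Those p-values come from 1 library per group.

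Of 58 genes of the wider complement system, the 9 members included, 23 were listed at 0 reads in all 4 libraries. CFB, C2, C4A and C4B are 4 of these and lie in the part of chromosome 6 where most genes are at 0, so their zeros give no level. Of the 54 genes elsewhere, 19 were listed at 0 in reads and in FPKM, among them the C1q chain genes, C6 and C7. Of 14 that passed the minimum in MDA-MB-231, 3 were called higher, all of them members, and 0 lower, against 5.33% and 3.39% of all genes tested. The median log2 ratio was 0.15 for the 14, -0.08 for the 7 that are no members and 0.01 over all genes tested.

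CFP and C4BPB, which are not among the 9 genes, had higher FPKM in MDA-MB-231 than in Ca1a. CFP, the gene of properdin, which stabilizes the alternative pathway enzyme, stood at 25.8 FPKM in knockdown cells against 28.1 in their control, and at 0.111 FPKM in overexpressing cells against 0.0263 in their control. C4BPB, the gene of a chain of the C4b-binding protein, stood at 3.18 FPKM in knockdown cells against 3.27 in their control, and was listed at 0 in Ca1a. Its neighbour C4BPA, the gene of the main chain, had 0 reads in every library. ITGB2 stood at 12.0 FPKM in the MDA-MB-231 control against 0.696 in the Ca1a control. C1RL went the other way, at 1.51 FPKM in the MDA-MB-231 control against 3.11 in the Ca1a control.

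Neither CFP nor C4BPB was called in the knockdown comparison, where the ratio was 0.945 (0.865 to 1.03) for CFP and 1.02 (0.887 to 1.18) for C4BPB. The terminal component gene C5 had a ratio of 0.848 (0.703 to 1.02) and SUSD4, a membrane inhibitor gene, 0.823 (0.490 to 1.37). ITGB2, the shared beta chain of leukocyte integrins that bind C3 fragments, had a ratio of 1.12 (1.04 to 1.22). C1QBP, whose product binds C1q and also resides in mitochondria, had a ratio of 0.945 (0.909 to 0.982).

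In Ca1a, 10 of the 58 genes passed the minimum, 2 were called higher and 1 lower, against 5.76% and 5.94% of all genes tested, with a median log2 ratio of 0.08 against 0.01 over all genes tested. Beside C3 and CD55 this was ITGB2, with 103 counts in overexpressing cells against 70 in control cells, a ratio of 1.47 (1.08 to 2.02). C1QBP had a ratio of 1.01 (0.974 to 1.06), C1RL 1.004 (0.888 to 1.13), C5 1.11 (0.815 to 1.51) and CSMD3 1.17 (0.652 to 2.10), and none of the 4 was called.

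**Figure D3:**
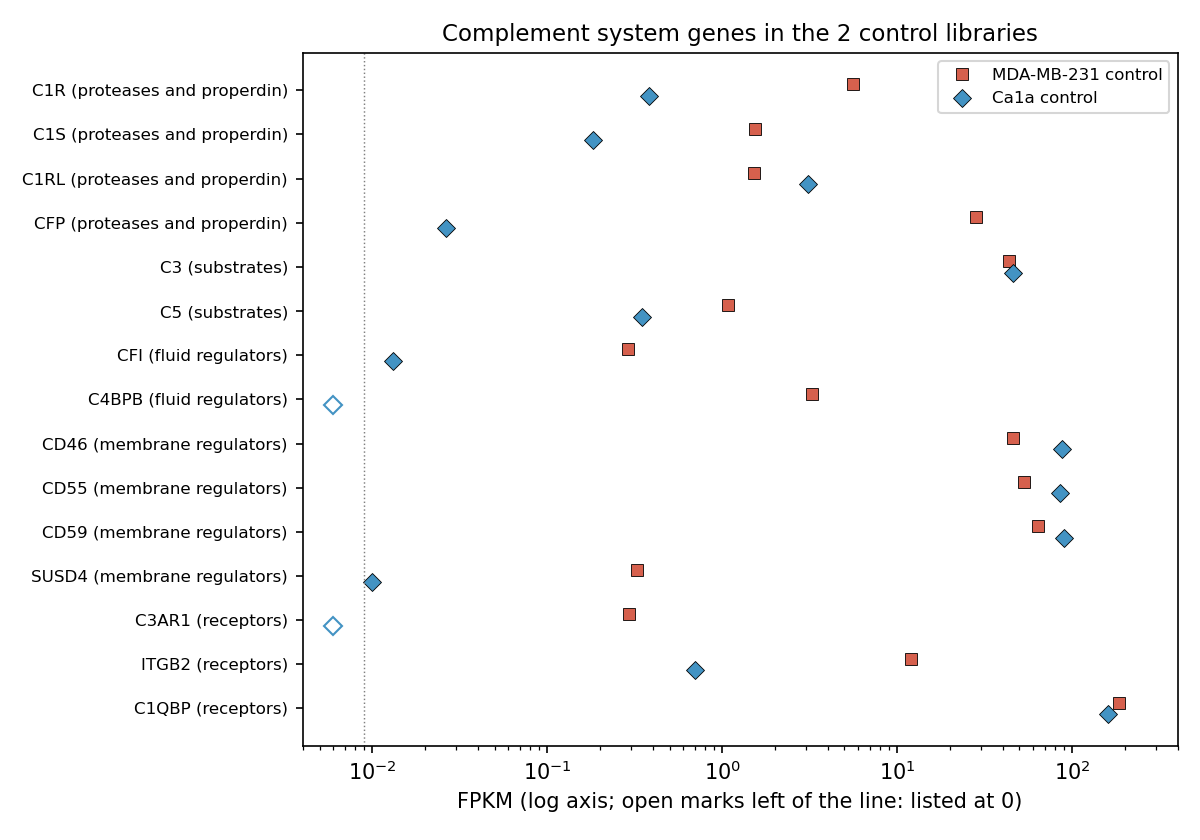
FPKM (log axis) of the complement system genes with at least 0.25 FPKM in either control library, by role, with squares for the MDA-MB-231 control and diamonds for the Ca1a control. Open marks left of the dotted line are listed at 0. C3 lies at 43.8 and 46.0 FPKM, and the 3 abundant membrane regulators and C1RL are higher in Ca1a. C1R, C1S, CFP, C4BPB, ITGB2, C5, CFI, SUSD4, C3AR1 and, by less, C1QBP are higher in MDA-MB-231.

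Genes for making and attaching the GPI anchor, which CD55 and CD59 need to reach the surface, were counted in the same way. Of 29 genes 27 passed the minimum in each comparison. In the knockdown comparison 1 was called higher and 1 lower, against 5.33% and 3.39% of all genes tested, so these counts are near the background. The median log2 ratio was -0.01. PGAP2, which acts in anchor remodelling, had a ratio of 1.24 (1.07 to 1.44) and MPPE1, which encodes a phosphodiesterase of the anchor, 0.694 (0.524 to 0.917). PIGZ (0.847) and PIGP (1.18) were not called.

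In the overexpression comparison 1 was called higher and 0 lower, against 5.76% and 5.94% of all genes tested, with a median of 0.00. DPM3, of the enzyme that makes the mannose donor, had a ratio of 1.30 (1.02 to 1.67). PIGA, of the enzyme of the opening step, had 808 counts in overexpressing cells against 956 in control cells, a ratio of 0.845 (0.769 to 0.929), short of 1.2-fold. PIGM (1.26) and PGAP3 (1.24) had intervals that held 1.

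Among genes of transcription factors known to act at complement promoters, 0 of 16 tested in Ca1a were called higher and 3 lower, with a median log2 ratio of -0.03. Over all genes tested there, 5.76% were called higher and 5.94% lower. By the interval alone, without the 1.2-fold limit, 0 of the 16 lay above 1 and 5 below it, against 18.1% and 16.2% of all genes tested. CEBPB, an acute phase activator of C3, had 1871 counts in overexpressing cells against 3244 in control cells, a ratio of 0.577 (0.545 to 0.611). RELB, an NF-kB subunit gene, had 136 counts in overexpressing cells against 201 in control cells, a ratio of 0.677 (0.540 to 0.845). IRF1, an interferon-induced factor gene, had 124 counts in overexpressing cells against 161 in control cells, a ratio of 0.770 (0.604 to 0.980). NFKB2 had a ratio of 0.866 (0.823 to 0.911) and was not called. CEBPB, RELB and IRF1 were lower in the library in which C3 was higher, and whether these differences are linked was not tested.

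In the knockdown comparison 0 of 15 factor genes tested were called, with a median of 0.08, against 5.33% higher and 3.39% lower over all genes. By the interval alone, 4 of the 15 lay above 1 and 2 below it, against 16.8% and 11.3% of all genes tested. The difference between the comparisons was not tested. The ratios farthest from 1 were 1.15 for FOXO1, NR1H3 and IRF9, the last with an interval of 1.003 to 1.32, and 0.895 (0.839 to 0.955) for NFKB1. C1R, C1S and C3 were called higher in MDA-MB-231, and no gene of this list was called. A link between the list and these genes was not tested.

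**Figure D4:**
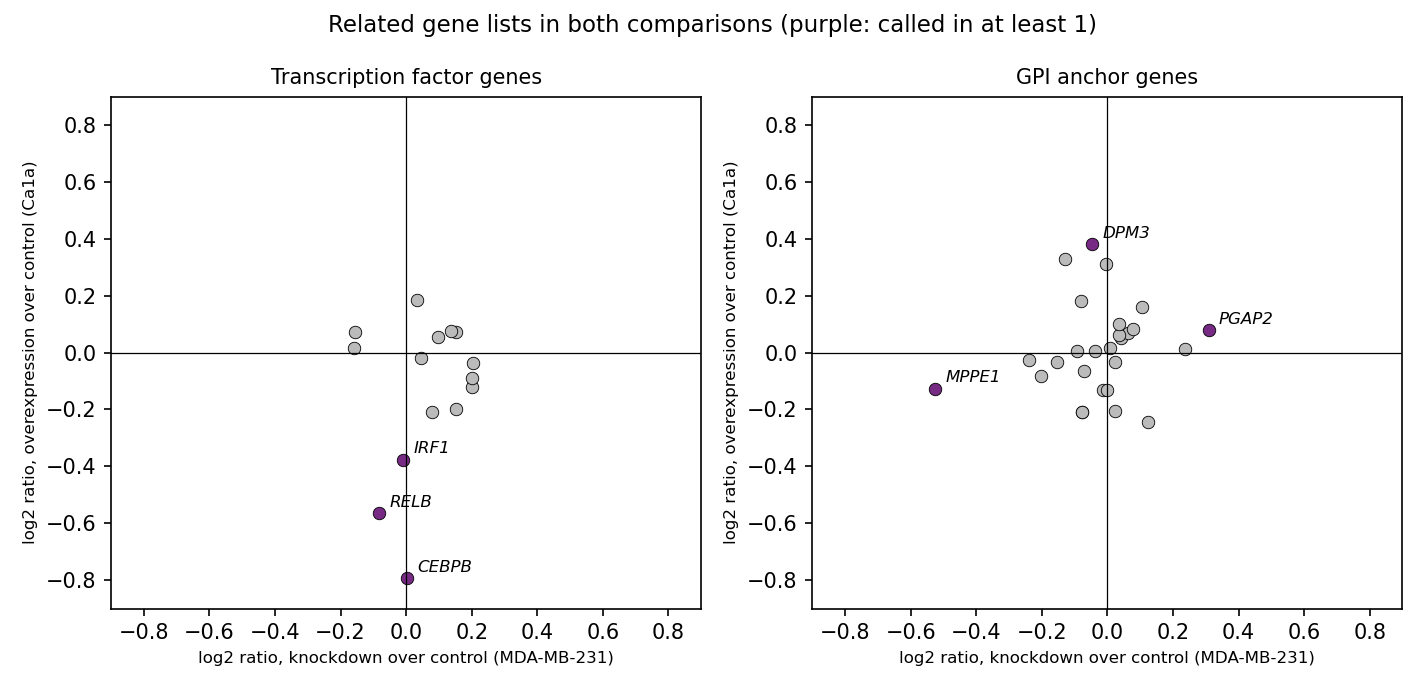
log2 ratio of knockdown over control in MDA-MB-231 (x axis) against log2 ratio of overexpression over control in Ca1a (y axis) for transcription factor genes (left) and GPI anchor genes (right) tested in both comparisons. Purple points were called in at least 1 comparison. CEBPB, RELB and IRF1 lie below 0 on the y axis, and DPM3, PGAP2 and MPPE1 are the called anchor genes.

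The abundant members were also placed among 9041 genes by 3 log2 ratios: knockdown over control, overexpression over control, and MDA-MB-231 control over Ca1a control in FPKM. The closest genes to CD55 by Euclidean distance were CHPF (0.0265), of chondroitin synthesis, and SLC33A1 (0.0474), an acetyl-CoA transporter gene. Those closest to CD59 were UBALD1 (0.0411) and LGALS1 (0.0424), the galectin-1 gene. Those closest to CD46 were XPNPEP3 (0.0359), an aminopeptidase gene, and SUCLG1 (0.0403), of the TCA cycle. C3 had no neighbour as close: PTMAP2, a pseudogene, lay at 0.109 and SPICE1, a spindle gene, at 0.130. Nearest distances of genes that are no members were not computed, so nothing is read from this larger distance. The ratios share 4 libraries, so this is a description of them.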

How the data were processed

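RNA of 4 cultures was sequenced, 1 library per group. The submitters' processing notes name the tools HISAT2, Cufflinks, HTSeq and DESeq, without version or role, and as builds hg38 and GRCh38.p5. The strand setting is unknown here. The authors deposited whole-number counts per gene for Ca1a. For MDA-MB-231 the deposited signal is counts divided by a size factor, and 100% of values were whole multiples of the smallest (tolerance 1e-06), used here as reads. The same deposited tables give the authors' fold ratio, log2 fold change and p-value per gene, and a further deposited table holds FPKM.

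The members, lists and motifs were chosen with earlier results of these data known. Ratios are treated over control normalized counts with exact conditional binomial (Clopper-Pearson) intervals, levels have exact Poisson intervals, both at 95%. Fragments are not independent molecules, so intervals, those of a count of 0 included, cover counting error only. With 1 library per group no test was made. Poisson counts were simulated without variation between cultures, and only genes averaging at least 100 were changed. The call rule found 100% of 100 genes raised 1.5-fold and 95% of 100 lowered by as much in the knockdown comparison (13317 genes). In the overexpression comparison (12112 genes) it found 100% of both. Smaller folds, at which most called members lie, were not simulated, and false calls were not counted. Named genes are the 9 members, TMEM126A, complement system genes averaging at least 20 normalized counts, 4 or fewer genes per related list and comparison with the largest absolute log2 ratios, and the 2 closest genes by pattern. The cell type markers KRT5, VIM, CD163, ALB, APOA1, DCN, CD14, CSF1R and COL1A1 were named from a separate list, and genes that overlap a member were named by position. C2, C4A, C4B, C4BPA, the C1q chain genes, C6, C7 and PIGY were named after their values were seen. Of the complement system list, 1 gene is not reported here and is left out of its counts. Positions are from GENCODE release 29.

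Alternatives were FPKM, scaling by total reads, median or TMM, a minimum mean of 5, 100 or none, log2(value + 1), other folds and no interval. Calls with FPKM used the FPKM ratio and no interval. Software was python 3.11.15, numpy 2.4.6, pandas 2.3.3, scipy 1.17.1, matplotlib 3.10.9, R 4.3.3 and edgeR 4.0.16.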

Additional observations from a re-analysis of the deposited data

How the results depend on the processing

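No paired analysis was possible because each group held 1 library. Scaling by total reads, the median or TMM and log2(value + 1) left every count of calls in the members and the 3 lists within 1.5 times, as did dropping the filter or a minimum mean of 5. Of 75 recomputed log2 ratios of members 73 stayed inside their counting intervals and 2 did not, both with FPKM in Ca1a (CD46 -0.01 and CD55 -0.37). At 1.5-fold the knockdown comparison kept 1 member called higher (C1R) and the overexpression comparison 0 higher and 0 lower; at 2-fold all these counts were 0. With FPKM 2 members, CD55 and C1S, were lower in Ca1a. For the complement system list in MDA-MB-231, 5 genes were higher at 1.1-fold, 1 at 1.5-fold and 0 at 2-fold. In that list 1 was lower with FPKM (C5) and 1 without the interval (SUSD4). In Ca1a 1 was higher with a minimum mean of 100 and 0 at 1.5-fold and 2-fold, and 2 were lower with FPKM and 0 at 1.5-fold and 2-fold. For the GPI anchor list in MDA-MB-231, 0 were higher at 1.5-fold and 2-fold, and the lower count was 0 with FPKM, 2 at 1.1-fold and 0 at 1.5-fold and 2-fold. In Ca1a 3 were higher with FPKM or without the interval, 3 at 1.1-fold, not all the same genes, and 0 at 1.5-fold and 2-fold. There 2 were lower with FPKM and 3 at 1.1-fold. For transcription factors 2 were higher and 2 lower in MDA-MB-231 at 1.1-fold, and in Ca1a 5 were lower at 1.1-fold, 1 at 1.5-fold and 0 at 2-fold. Between the controls, reads scaled to library totals gave a ratio of 0.728 for CD59, and setting the median ratio to 1 gave 0.826 for C3, 0.454 for CD46, 0.535 for CD55 and 0.616 for CD59, which takes CD46 past 2-fold. The cause of these shifts was not tested. The share of all genes called under the alternatives was not counted, so those counts of calls have no background beside them. The low reads of C1R, C1S, CFI and SERPING1 in Ca1a limit what can be seen there.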

Other observations

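Counts and FPKM of some genes differed in kind. PIGY, the gene of a small GPI anchor subunit, had 0 reads everywhere but stood at 104 FPKM in knockdown cells against 99.5 in their control, and at 37.8 FPKM in overexpressing cells against 41.4 in their control. For C1R, scaled reads divided by FPKM gave 1.93 kb in knockdown cells against 1.97 kb in their control, and 2.99 kb in overexpressing cells against 1.73 kb in their control. The Ca1a values rest on 11 and 14 reads.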
